A study of Mus musculus with 6 samples.

Results

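The genes described here are 35 members of the antioxidant, glutathione and thioredoxin systems. They were taken by gene symbol from a list of names, drawn up with earlier results of these data known, out of 53819 genes in the table of read counts. All 35 had a row, and all 35 passed the low-count filter that left 15232 genes for testing. The counts come from 6 RNA-seq libraries of mouse leukaemia cells sorted from the spleen. Every library, controls included, came from mice transplanted with primary leukaemia cells that carried BCR-ABL and NUP98-HOXA9, fusion genes used together to model blast-crisis chronic myeloid leukaemia (bcCML). The 3 libraries KO1 to KO3 are labelled SLC6A6 KO and the 3 libraries WT1 to WT3 SLC6A6 WT, and Slc6a6 encodes the taurine transporter. The labels give neither the allele, the strain, sex or age of the mice, a treatment that differs between the groups, a time, nor the sorting marker, and the series title says knock-down where they say KO. Separate mice or leukaemias behind the 3 libraries of a group are not named either, so p-values measure only how far these samples spread, which may be technical variation.

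The system handles peroxides and oxidised thiols. The transcription factor NRF2 (gene Nfe2l2) is held in the cytosol and marked for destruction by KEAP1, and on oxidative stress it reaches the nucleus, pairs with small MAF proteins and binds antioxidant response elements in front of enzyme genes. Glutathione, made from glutamate, cysteine and glycine, and thioredoxin are the main thiol reductants of the cell, and both are kept reduced by NADPH-dependent reductases. Peroxiredoxins, glutathione peroxidases and catalase remove peroxides, and red cell precursors are known for high levels of several of these proteins and of ferritin, which stores iron.

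Library totals ran from 42829294 to 49537098 counts. Slc6a6 itself stood at 125, 132 and 133 CPM (read counts scaled by library size, always in the order 1, 2, 3) in KO and at 151, 145 and 145 CPM in WT, a difference that did not pass the test (edgeR adjusted p = 0.196) and that does not check the genotype, since counts per gene do not show an altered transcript. KO and WT are used below as labels. Transcripts of 4 Y-linked genes together had 10274 to 11236 counts in each KO library and 0, 0 and 1 in the WT libraries. The X-linked Xist was at 4.41, 0.305 and 0.776 CPM in KO and at 197, 177 and 160 CPM in WT (edgeR adjusted p = 0.0170). The label and these sex-linked transcripts thus cannot be told apart. Of 12 markers for leukaemic blasts, which summed to 651 to 737 CPM in KO and 542 to 843 CPM in WT, 1 was higher past the test and 0 lower. That was Kit, at a mean of 65.1 CPM in KO and 17.9 CPM in WT (3.64-fold, adjusted p = 0.0450). Ptprc, Hoxa9, Myb, Meis1 and Spi1 were present in both groups. Hoxa9 was lower in every KO library (means of 102 and 134 CPM in KO and WT, edgeR adjusted p = 0.0502). Myb was higher in every KO library (212 and 179 CPM, adjusted p = 0.184). Spi1, at 51.5 and 77.4 CPM, overlapped between the groups, as did Ptprc and Meis1. Cd34 (1.61 and 8.37 CPM in KO and WT) and Flt3 (1.75 and 5.43 CPM) were lower in every KO library without passing the test, Mpo and Elane had 0 counts in KO1, and Itgam (0.694 and 1.04 CPM) and Cebpa (0.154 and 0.485 CPM) were near 0. Red cell markers, led by the globins Hbb-bs and Hbb-bt, were abundant: 21 erythroid genes summed to 25924, 8754 and 29627 CPM in the libraries KO1 to KO3 and to 2970, 12210 and 6793 CPM in WT1, WT2 and WT3, and in bulk samples a smaller number of cells of a type and less RNA per cell cannot be told apart.

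Of the 35 genes, 1 rose and 0 fell in KO in edgeR's quasi-likelihood test at a Benjamini-Hochberg adjusted p below 0.05. The gene was Nqo1. Over all tested genes 1.64% were higher and 1.92% lower. At an unadjusted p below 0.05 the members numbered 8 higher and 0 lower, against 11.6% and 10.4% of all genes, and DESeq2 called 6 higher and 0 lower, against 7.06% and 6.04%. The median log2 fold change (KO over WT) of the members was 0.19, from -0.18 to 0.94, against 0.01 for all tested genes, and 26 of 35 were positive. KO and WT values did not overlap for 10 members, 8 of them higher and 2 lower in KO, where 13.6% and 14.4% of all genes were so. With both directions pooled that is 28.6% of the members beside 28.0% of all tested genes, so separation in either direction was about as frequent as elsewhere. By direction, 8 of those 10 members were higher in KO, beside 2068 of 4269 such genes among all tested. That difference was not tested.

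**Figure D1:**
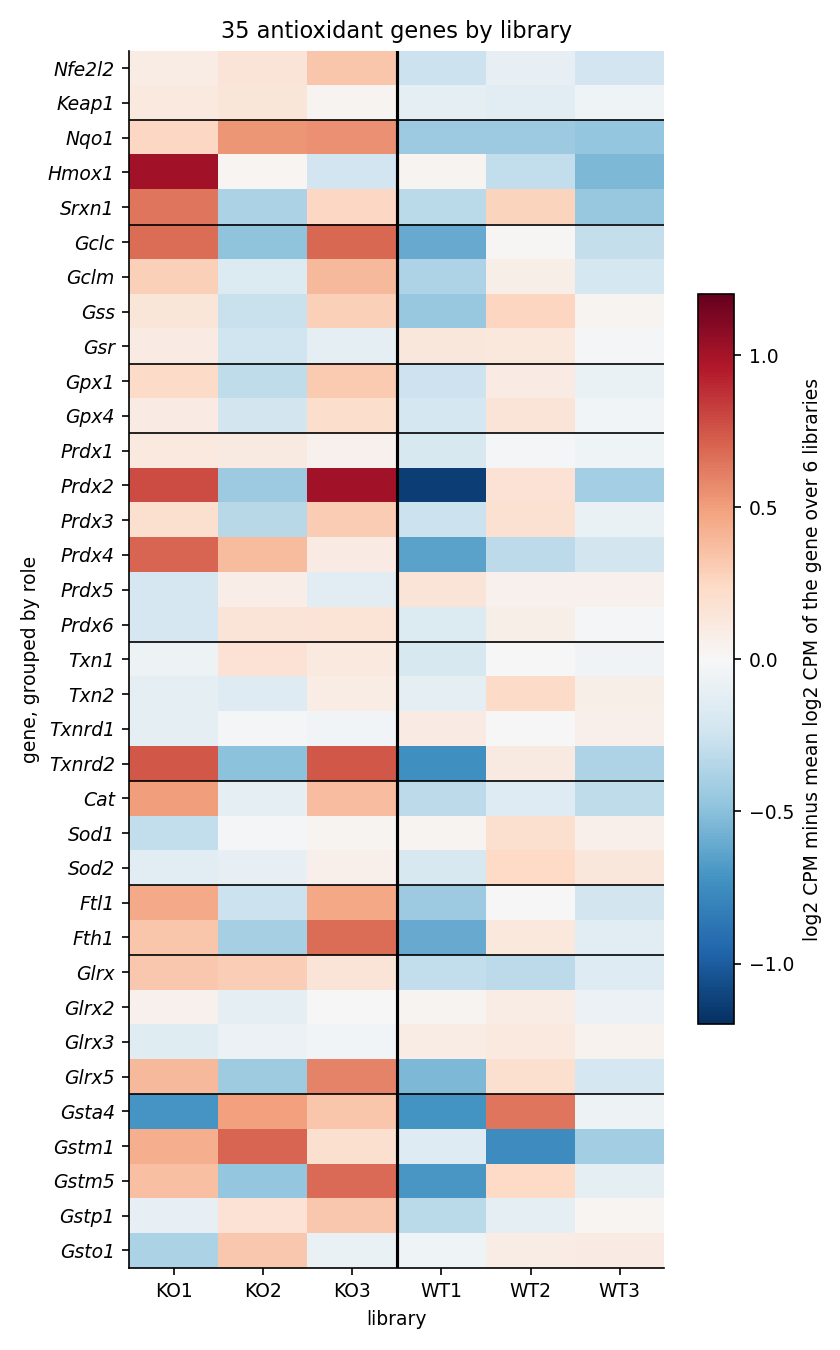
Level of each of the 35 genes in each library (columns), as log2 CPM minus the gene's own mean over the 6 libraries. Rows are grouped by role, and a heavy line parts KO from WT. Nqo1 is uniformly higher in the 3 KO libraries, whereas Prdx2, Gclc, Txnrd2 and Fth1 are high in KO1 and KO3 and low in KO2 and WT1.

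Expression of the NRF2 switch itself was higher in KO without passing the test. Nfe2l2, the transcription factor, was at 128, 134 and 151 CPM in KO and at 100.4, 112 and 103 CPM in WT1, WT2 and WT3. Every KO library lay above every WT library (log2 fold change 0.39 ± 0.09, SE, n = 3 against 3, adjusted p = 0.0729). Keap1, whose product holds NRF2 back, moved by less, at 106, 108 and 100.1 CPM in KO and 90.2, 90.0 and 94.8 CPM in WT. The groups did not overlap here either, with a log2 fold change of 0.19 ± 0.08 and an adjusted p of 0.198. DESeq2 called Nfe2l2 (adjusted p = 0.00884) but not Keap1 (adjusted p = 0.136).

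Sequence in front of the start sites was examined for the antioxidant response element, which NRF2 binds. The core TGACNNNGC was searched on both strands from 250 bases before to 50 bases after each RefSeq start (build GRCm38.p6). It was present for 7 of the 30 members that had an entry, namely Nfe2l2, Srxn1, Gclm, Prdx1, Txnrd1, Sod1 and Gstm5, and for 14.0% of all 27025 genes in that collection. These 7 had no common direction: Nfe2l2 and Prdx1 were higher in every KO library, Txnrd1 was lower in every KO library and the other 4 overlapped between KO and WT. The 250 bases before the start, 5′ to 3′ on the gene's strand, are shown for 4 genes that hold the core, with the core in capitals (written GCNNNGTCA where it lies on the opposite strand), and for Nqo1, the member that passed the test. Nfe2l2 is at chr2:75704664-75704913 on the minus strand, Prdx1 at chr4:116685349-116685598, Gclm at chr3:122245307-122245556 and Txnrd1 at chr10:82858956-82859205 (1 of its 3 starts), all on the plus strand, and Nqo1 is at chr8:107403206-107403455 on the minus strand.
Nfe2l2: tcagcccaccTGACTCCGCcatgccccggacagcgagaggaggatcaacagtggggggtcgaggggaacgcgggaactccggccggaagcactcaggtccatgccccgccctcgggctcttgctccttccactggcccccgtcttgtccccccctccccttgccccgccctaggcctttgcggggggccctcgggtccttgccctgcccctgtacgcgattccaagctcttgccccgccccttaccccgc
Nqo1: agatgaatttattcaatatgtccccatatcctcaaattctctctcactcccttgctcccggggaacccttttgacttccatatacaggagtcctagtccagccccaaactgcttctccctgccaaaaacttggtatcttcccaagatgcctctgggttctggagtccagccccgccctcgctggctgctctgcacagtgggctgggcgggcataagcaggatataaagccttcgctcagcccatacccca
Prdx1: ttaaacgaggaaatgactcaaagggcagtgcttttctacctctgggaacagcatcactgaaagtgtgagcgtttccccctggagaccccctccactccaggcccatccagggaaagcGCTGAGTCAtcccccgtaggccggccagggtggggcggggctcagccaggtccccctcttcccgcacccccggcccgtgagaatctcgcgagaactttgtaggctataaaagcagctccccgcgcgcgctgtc
Gclm: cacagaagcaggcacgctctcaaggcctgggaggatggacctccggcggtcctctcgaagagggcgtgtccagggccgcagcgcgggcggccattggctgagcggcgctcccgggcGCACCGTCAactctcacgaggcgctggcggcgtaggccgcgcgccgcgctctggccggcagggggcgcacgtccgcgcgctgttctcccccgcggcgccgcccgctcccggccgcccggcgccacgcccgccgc
Txnrd1: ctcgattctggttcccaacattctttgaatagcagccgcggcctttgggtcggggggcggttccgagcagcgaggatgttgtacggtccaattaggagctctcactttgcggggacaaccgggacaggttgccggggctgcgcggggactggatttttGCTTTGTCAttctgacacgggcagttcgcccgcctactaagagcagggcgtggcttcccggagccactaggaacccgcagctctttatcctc
The core began 240 bases before the start in Nfe2l2, 133 in Prdx1, 134 in Gclm and 92 in Txnrd1. The window of Nqo1 does not hold these letters, and longer stretches were not searched.

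Among the enzymes most often read as NRF2 output, Nqo1 rose and the other 2 did not pass the test. Nqo1, a quinone reductase, was at 56.9, 69.2 and 70.1 CPM in the KO libraries. In WT1, WT2 and WT3 it was at 35.4, 35.5 and 34.8 CPM. The WT libraries were nearly identical, and the lowest KO library was well above them. The rise was 1.86-fold (65.4 ± 7.39 against 35.2 ± 0.364 CPM, SD, n = 3; log2 fold change 0.89 ± 0.11, SE; adjusted p = 0.0165). It was past the threshold in 12 of 15 alternative fits, and the adjusted p was 0.0558 without KO3, 0.0881 without WT3 and 0.0801 with the replicate number as a block. Hmox1, the enzyme that opens the haem ring, was at 31.6, 16.0 and 13.5 CPM in KO and at 16.1, 12.9 and 10.8 CPM in WT. One library set its difference, KO1, with a log2 fold change of 0.62 ± 0.34 over all libraries and 0.16 without it. KO1 also had the highest sum of 12 macrophage markers, 223 CPM beside 139 and 138 CPM in KO2 and KO3 and 48.3 to 72.5 CPM in WT, with 3 of the 12 past the test and all higher, and the part of such cells in the Hmox1 value was not tested. Srxn1, which repairs over-oxidised peroxiredoxins, was at 78.3, 38.6 and 59.9 CPM in KO and 40.4, 60.5 and 36.8 CPM in WT, so that WT2 exceeded KO3 and the groups overlapped.

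**Figure D2:**
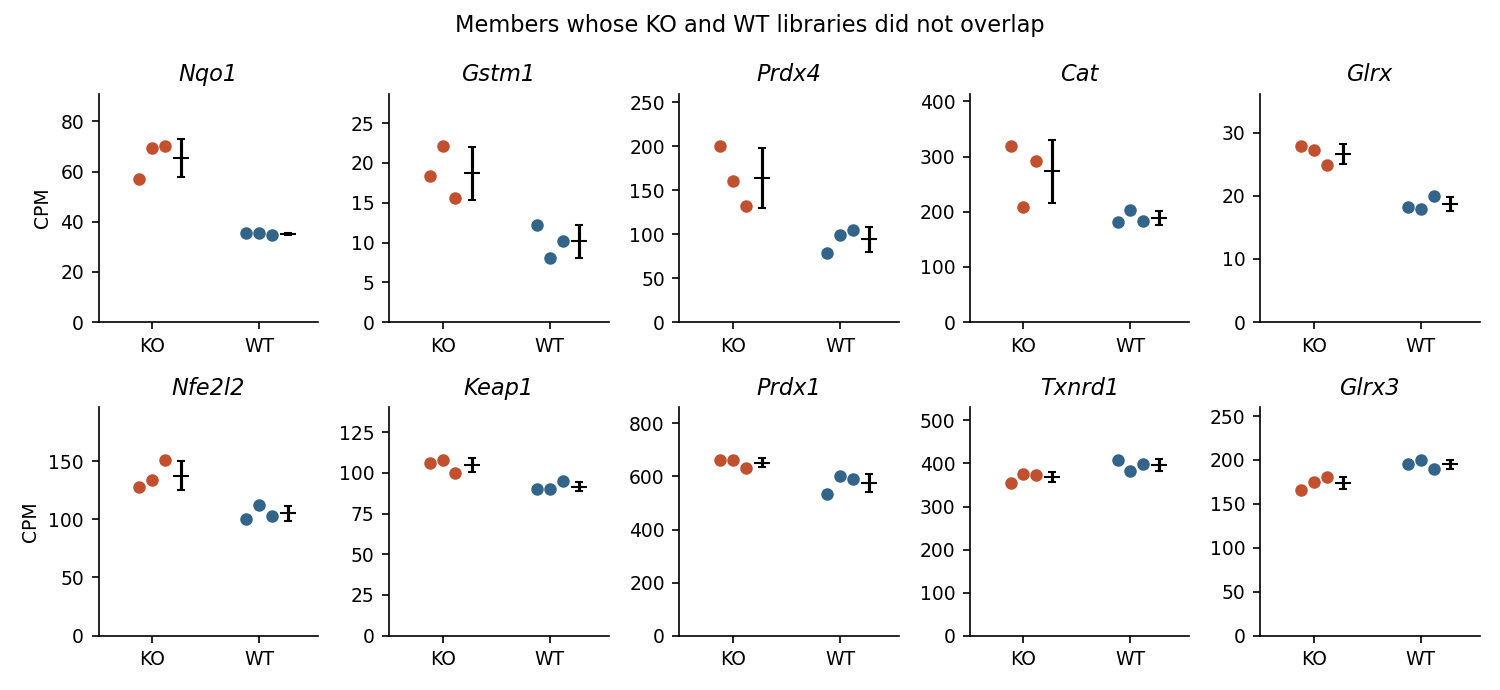
CPM of the 10 members whose KO (red) and WT (blue) libraries did not overlap, 1 point per library in the order 1, 2, 3, with mean ± SD beside the points and every axis starting at 0. Nqo1 has the tightest WT group, from 34.8 to 35.5 CPM, and Txnrd1 and Glrx3 are the 2 members with lower KO values.

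None of the 4 genes for glutathione synthesis and recycling passed the test. Gclc, the catalytic subunit of the rate-limiting ligase, was at 222, 99.7 and 225 CPM in KO and at 91.6, 141 and 114 CPM in WT. KO2 lay among the WT libraries, which leaves a log2 fold change of 0.66 ± 0.32 and an adjusted p of 0.280. Gclm, its modifier subunit, was at 549, 403 and 590 CPM in KO and 349, 473 and 390 CPM in WT, again with KO2 among the WT libraries. Gss, which adds glycine to complete glutathione, ranged from 58.6 to 86.2 CPM in KO and from 51.3 to 84.3 CPM in WT. Gsr, which reduces oxidised glutathione, had a log2 fold change of the other sign, -0.16 ± 0.11, with 139 to 176 CPM in KO and 162 to 181 CPM in WT. The subunits of the ligase thus had similar library profiles, and the reductase did not share them.

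Gpx1, the abundant selenium-containing glutathione peroxidase, was the highest member by level. It was at 3690, 2547 and 3917 CPM in KO and 2646, 3386 and 2974 CPM in WT (log2 fold change 0.17 ± 0.17, adjusted p = 0.612). Gpx4, which reduces lipid peroxides in membranes, was at 268, 216 and 290 CPM in KO and 216, 278 and 246 CPM in WT. Both peroxidases were lowest in KO2 and WT1, and neither separated the groups. Per kilobase of the principal transcript (annotation GENCODE M21) Gpx1 reached 3158 ± 685 CPM in KO and 2800 ± 346 CPM in WT. The next in level per kilobase were the ferritin genes, Fth1 at 1472 ± 512 and 1085 ± 265 CPM and Ftl1 at 726 ± 188 and 525 ± 79.2 CPM, and then Prdx2. At the low end stood Gstm1 (14.5 and 7.88 CPM per kilobase in KO and WT), Hmox1 (12.98 and 8.44) and Gsta4 (2.47 and 2.36).

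The 6 peroxiredoxins, which reduce peroxides through a reactive cysteine, had unlike library profiles, and 0 of them passed the test. Prdx4, the peroxiredoxin of the endoplasmic reticulum, was at 200.2, 160.3 and 132 CPM in KO and 78.7, 99.2 and 105 CPM in WT. All KO libraries were above all WT libraries, with a log2 fold change of 0.80 ± 0.18 and an adjusted p of 0.0596, and DESeq2 called it (adjusted p = 6.70e-04). Its gene is X-linked, and the groups also differ in sex-linked transcripts. Prdx1, a cytosolic peroxiredoxin, was at 663, 660.2 and 634 CPM in KO and 535, 600.5 and 589 CPM in WT, a separation without overlap but of only 0.18 ± 0.07 on the log2 scale (adjusted p = 0.197). Prdx2, the peroxiredoxin of red cells, was at 1198, 515 and 1395 CPM in KO and 318, 782 and 525 CPM in WT. Its fitted difference was the widest of all members (log2 fold change 0.94 ± 0.43), yet KO2 was below both WT2 and WT3 and the adjusted p was 0.258. Mitochondrial Prdx3 (387 to 602 CPM in KO, 407 to 553 in WT), Prdx5 of several organelles (74.5 to 91.0 against 88.8 to 95.6) and Prdx6, which reduces phospholipid peroxides (879 to 1131 against 898 to 1058), overlapped between the groups, with log2 fold changes from -0.16 to 0.12.

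Thioredoxins and their reductases differed little, with 1 exception in fitted size. Txnrd1, the cytosolic reductase, was at 355, 376 and 372 CPM in KO and 409, 381 and 399 CPM in WT. Each KO value was below each WT value, by 0.11 ± 0.07 on the log2 scale (adjusted p = 0.399). Txn1, its cytosolic substrate, was at 376, 442 and 425 CPM in KO and 342, 393 and 381 CPM in WT, and mitochondrial Txn2 was at 250.4 to 297 CPM in KO and 257 to 326 CPM in WT. Txnrd2, the mitochondrial reductase, was at 156, 66.4 and 156 CPM in KO and 56.2, 101 and 72.1 CPM in WT. Its log2 fold change of 0.73 ± 0.35 came from KO1 and KO3, while KO2 lay below WT2 and WT3 (adjusted p = 0.287).

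Catalase breaks down the hydrogen peroxide that superoxide dismutases make, and the fitted differences of the 2 kinds of enzyme had opposite signs. Cat was at 319, 209 and 291 CPM in KO and 181, 203 and 183 CPM in WT, with KO2 only just above WT2. The log2 fold change was 0.53 ± 0.15 and the adjusted p 0.108. Without KO2 Cat passed edgeR's test (0.68, adjusted p = 0.0309), and DESeq2 called it with all libraries (adjusted p = 0.0189). Cytosolic Sod1 was at 76.0, 92.1 and 95.6 CPM in KO and 95.3, 107 and 97.0 CPM in WT (log2 fold change -0.18 ± 0.11). Mitochondrial Sod2 was at 181 to 208 CPM in KO and 174 to 235 CPM in WT (-0.13 ± 0.12). Neither dismutase passed the test.

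The ferritin chains followed the same libraries as Gclc and Prdx2. Fth1, the heavy chain that oxidises iron, was at 2301, 1387 and 2908 CPM in KO and 1204, 1992 and 1669 CPM in WT. Ftl1, the light chain, was at 805, 492 and 810.2 CPM in KO and 434, 587 and 505 CPM in WT. KO2 lay below WT2 and WT3 for both chains. The log2 fold changes of 0.44 ± 0.29 and 0.47 ± 0.21 did not pass the test (adjusted p = 0.426 and 0.246).

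Glutaredoxins, small thiol oxidoreductases that use glutathione, gave 1 member in each direction without overlap. Glrx, the cytosolic form, was at 27.8, 27.3 and 24.8 CPM in KO and 18.1, 18.0 and 20.03 CPM in WT. It was 1.42-fold higher with little spread (log2 fold change 0.51 ± 0.13, adjusted p = 0.0750, and adjusted p = 0.00255 in DESeq2). Glrx3, a cytosolic iron-sulfur carrier, was lower in each KO library, at 166, 175 and 180.2 CPM against 195, 200.2 and 189 CPM (-0.17 ± 0.07, adjusted p = 0.227). Glrx2, the form with mitochondrial and nuclear variants, overlapped at 54.4 to 61.3 CPM in KO and 56.4 to 63.0 CPM in WT. Glrx5, which carries iron-sulfur clusters in mitochondria and is needed for haem synthesis, was at 635, 362 and 732 CPM in KO and 333, 555 and 420 CPM in WT, with KO2 below WT2 and WT3.

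Of the 5 glutathione transferases, which couple glutathione to electrophiles, 0 passed edgeR's test. Gstm1 was at 18.4, 22.1 and 15.6 CPM in KO and 12.2, 8.07 and 10.2 CPM in WT. All KO libraries were higher (log2 fold change 0.88 ± 0.22, adjusted p = 0.0767, and adjusted p = 0.00325 in DESeq2). Reads of Gstm1 can be shared with its neighbours in the mu cluster, of which Gstm4 had 82.9% and Gstm2 32.1% as many counts, so the split between them is uncertain. Gstm5 was at 129, 72.7 and 161 CPM in KO and 62.1, 119 and 93.1 CPM in WT, with KO2 between WT1 and WT3. Gstp1 (113 to 151 CPM in KO, 96.9 to 123 in WT), Gsto1 (136 to 221 against 170 to 188) and the sparse Gsta4 (1.35 to 3.11 against 1.35 to 3.46) overlapped as well. Processed copies of Prdx2, Fth1, Ftl1 and Txn1 held under 1% of their parents' counts, while Gpx4-ps2 had 4.84% of those of Gpx4.

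Apart from the labels, 1 pattern across libraries was common among the members. For 13 of 35 genes, or 37.1%, KO1, KO3 and WT2 were the 3 highest libraries, against 7.73% of all tested genes and 12.8% of those at 100 CPM or more, and for 0 members were they the 3 lowest (6.43% of all genes). The 13 were Srxn1, Gclc, Gclm, Gss, Gpx1, Gpx4, Prdx2, Prdx3, Txnrd2, Ftl1, Fth1, Glrx5 and Gstm5. This grouping was chosen after the values were seen and is a description. The same 3 libraries had the highest mean over 20 erythroid markers, in the order KO3, KO1, WT2, KO2, WT3, WT1 (9.27, 9.07, 8.08, 7.53, 7.33 and 6.20 on the log2 scale of CPM + 0.5). That choice makes KO2 the lowest KO library and WT2 the highest WT library, so that the groups must overlap and a positive log2 fold change is favoured. WT3 stood above WT1 for 12 of the 13, all but Srxn1. Over all genes WT3 was closer to WT2 than WT1 was (chi-square over its degrees of freedom 36.4 and 120). A choice for high WT2 may thus favour that order too, and its share of all genes was not counted. Only Gclm had all 6 libraries in the order of the erythroid mean, as did 1.13% of all genes.

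**Figure D3:**
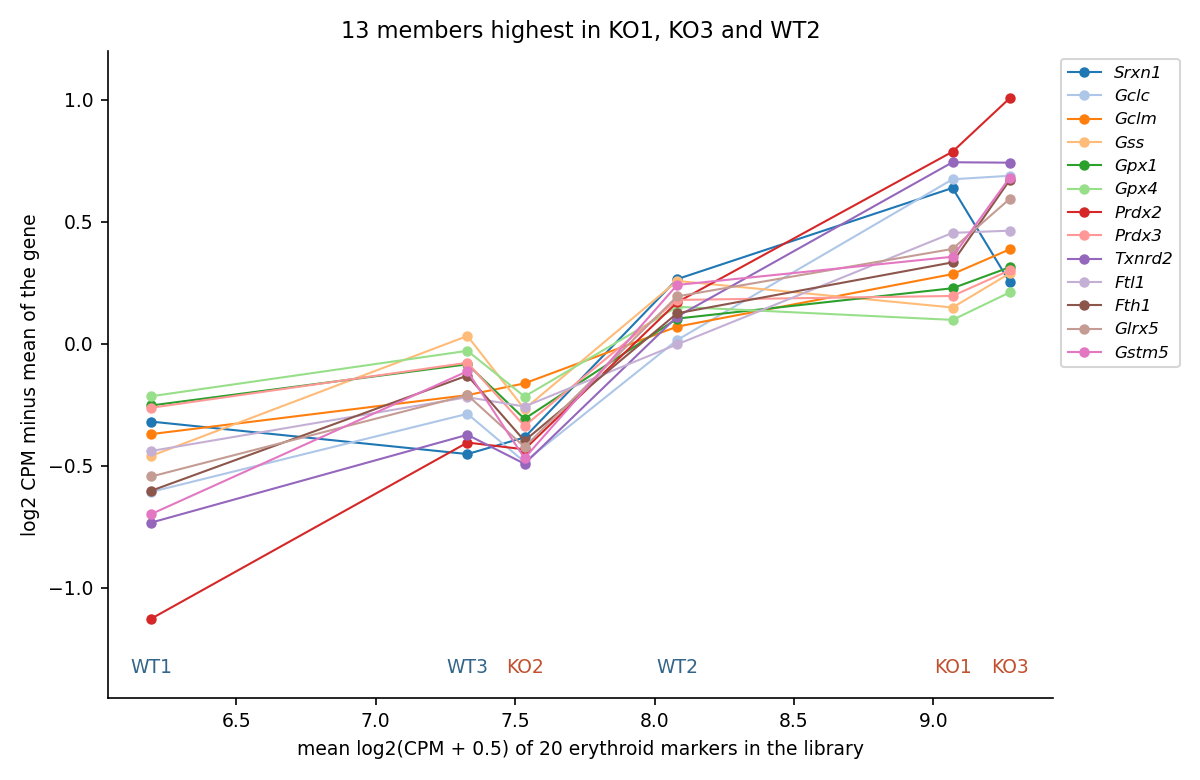
Level of the 13 genes (log2 CPM minus the gene's mean, 1 line per gene) against the mean log2(CPM + 0.5) of 20 erythroid markers in the same library, with library names along the foot. The genes were chosen for being highest in KO1, KO3 and WT2. WT1, lowest in the erythroid mean at 6.20, is the lowest library for all but Srxn1, Gpx1, Gpx4 and Prdx3. Srxn1 is lowest in WT3 and the other exceptions in KO2.

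The summed erythroid markers ranged 3.38-fold within KO and 4.11-fold within WT, with 0 of 20 tested markers past the test. Of the 13 genes Prdx2 ranged most widely, 2.71-fold within KO and 2.45-fold within WT. The medians of the 13 were 2.02-fold and 1.64-fold. With the erythroid mean as a covariate, 13 of all 35 members had a positive log2 fold change, where 26 had one without it, and the median went from 0.19 to -0.11, beside 0.01 and 0.02 for all tested genes. All 13 genes above were negative in that fit. The other 22 members had 13 positive in both fits, with a median of 0.121 without the covariate and 0.116 with it. The lower count for all 35 thus came from those 13 genes. Their signs in that fit follow in part from how they were picked, since the libraries that define them are the highest in the covariate, and nothing is read from them. Nqo1 stayed past the test (log2 fold change 0.93, adjusted p = 0.0442), Gstm1 passed the test (1.28, adjusted p = 0.0444), and Prdx4, Glrx, Nfe2l2 and Cat stood at 0.67, 0.54, 0.30 and 0.23 without passing it. With 0.952% of all genes called higher and 0.650% lower in that fit, 2 of 35 members were called. The covariate and the label are partly confounded, since 2 of the 3 KO libraries had the highest erythroid means, and whether red cell precursors account for these levels was not tested.

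**Figure D4:**
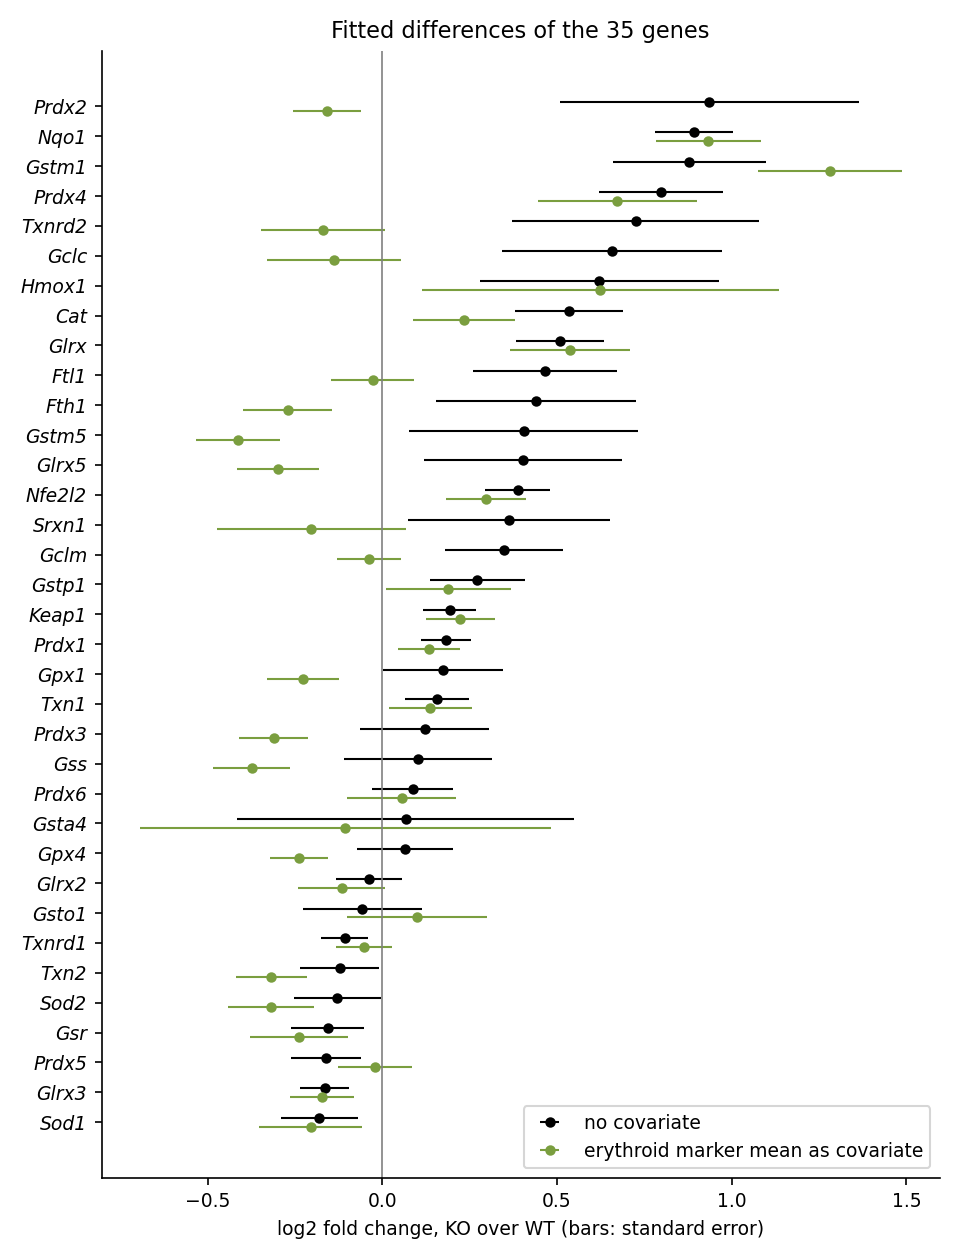
Log2 fold change (KO over WT) of the 35 genes with its standard error, without a covariate (black) and with the erythroid marker mean as a covariate (green). Nqo1 is at 0.89 without and 0.93 with the covariate. Prdx2 is at 0.94 and -0.16, but it is 1 of the 13 genes picked for the libraries highest in the covariate, which favours such a change.

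Genes around the 35 were read from 9 lists of the same pathway, with 158 genes, of which 140 were tested. In all, 3 rose and 7 fell, or 2.14% and 5% of those tested, beside 1.64% and 1.92% of all tested genes. The difference between these shares was not tested, and the counts in single lists are too small to set against them. The median log2 fold change over these 140 genes was 0.05. Among 12 tested partners and repressors of NRF2, Nfe2, the related factor of red cell precursors and megakaryocytes, rose 1.41-fold. It was at 609, 524 and 549 CPM in KO and 408, 395 and 391 CPM in WT (adjusted p = 0.0265). The erythroid sums above and those of 9 megakaryocyte markers (660 to 996 CPM in KO, 976 to 1678 in WT, with 1 higher and 1 lower past the test) stood beside it, and their part was not tested. Of 20 other NRF2 targets 0 passed, with 16 of 20 positive. Their median log2 fold change was 0.14, beside 0.01 for all tested genes, and the share of positive signs over all genes was not counted. Taldo1, Blvra, Blvrb, Nqo2, Esd and Slc48a1 were highest in KO1, KO3 and WT2. So were 7.73% of all tested genes and 12.8% of those at 100 CPM or more. That pattern favours a positive log2 fold change, and all of these targets were positive. The smallest p among the 20 belonged to Me1, a source of NADPH that went the other way, at 10.4 to 19.3 CPM in KO and 17.3 to 26.6 in WT. Next was Blvrb, a biliverdin reductase of red cells, at 624, 199 and 693 CPM in KO and 97.3, 368 and 227 CPM in WT.

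Of 18 tested genes for the supply and breakdown of glutathione and its amino acids 1 rose and 2 fell. Ggct, which opens gamma-glutamyl amino acids in the breakdown of glutathione, was at 11.8, 10.2 and 13.2 CPM in KO and 24.2, 21.4 and 23.1 CPM in WT, a fall of 48.7% (adjusted p = 0.0282). Ggt7, a member of the gamma-glutamyl transferase family, fell to 2.75, 1.22 and 1.60 CPM from 8.70, 6.66 and 12.3 CPM (adjusted p = 0.0329). Both were lower in every KO library. Csad, which decarboxylates cysteine sulfinate on the way to taurine and so draws on the same cysteine, was at 24.7, 23.9 and 17.8 CPM in KO and 11.0, 9.50 and 11.9 CPM in WT, a rise of 2.05-fold (adjusted p = 0.0367).

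Among 18 further transferases 2 fell. Gstt2, of the theta class, was at 22.6, 21.7 and 21.6 CPM in KO and 45.2, 42.4 and 42.0 CPM in WT (log2 fold change -0.97 ± 0.10, adjusted p = 0.0100). It passed the test in 13 of 15 alternative fits. Hpgds, a sigma-class transferase that makes prostaglandin D2 and is known from mast cells and megakaryocytes, was at 1.28, 0.479 and 0.800 CPM in KO and 14.3, 14.5 and 5.15 CPM in WT (-3.73 ± 0.55, adjusted p = 0.0245). The sum of 10 mast cell, basophil and eosinophil markers was 55.7 to 127 CPM in KO and 111 to 239 CPM in WT, with 1 of 9 tested lower past the test, 0 higher and Tpsab1 at 0 in all libraries, and its part in the Hpgds value was not tested.

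Of 7 tested peroxidases, dismutases and related genes 1 fell: Gpx2, a glutathione peroxidase best known from the gut lining, had 0 counts in each KO library and 7.75, 1.77 and 2.92 CPM in WT. It passed edgeR's test (adjusted p = 0.0270). Taking 3 counts over the KO group (0.0228 CPM) as the limit that a count of 0 allows, the pooled WT level of 4.24 CPM was at least 186-fold higher. WT1 held 391 of the 607 WT counts, so this figure rests largely on that library. Of 21 thioredoxin-fold and repair genes 1 rose and 1 fell. Msrb3, a methionine sulfoxide reductase, was at 10.7, 11.5 and 12.9 CPM in KO and 28.2, 23.4 and 39.7 CPM in WT (adjusted p = 0.0270). Sesn1, a stress-induced sestrin, was at 106, 99.7 and 93.8 CPM in KO and 68.5, 68.1 and 76.3 CPM in WT (1.40-fold, adjusted p = 0.0381). The groups were apart in each of these 3 genes.

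Of 19 selenoprotein genes 1 fell, Selenos, a selenoprotein of the endoplasmic reticulum that takes part in clearing misfolded proteins. It was at 63.0, 82.7 and 76.4 CPM in KO and 117, 118 and 107 CPM in WT, a fall of 35.1% (adjusted p = 0.0396). Of 11 genes that supply NADPH 0 passed, and the 2 with the smallest p were the NAD kinases, cytosolic Nadk at 195 ± 2.75 CPM in KO and 245 ± 13.8 in WT (adjusted p = 0.0572) and mitochondrial Nadk2 at 165 ± 4.16 and 129 ± 15.1 (adjusted p = 0.0995). Of 14 genes of iron handling and lipid peroxidation 0 passed. The iron exporter Slc40a1 was at 76.9, 29.8 and 61.6 CPM in KO and 10.7, 28.0 and 19.5 CPM in WT (adjusted p = 0.104), with KO2 just above WT2, and the iron sensor Ireb2 at 61.6 ± 2.53 and 54.4 ± 2.15 CPM (adjusted p = 0.278). The iron exporter again had its 2 highest values in KO1 and KO3.

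The calls among these 10 related genes depended on the libraries included. With each library left out in turn, Gstt2 passed in 5 of 6 fits (adjusted p = 0.0601 without WT3) and Gpx2 in 3 of 6 (0.0749 without KO1, 0.0650 without KO3, 0.105 without WT3). Hpgds passed without KO2 or WT3, Msrb3 without KO2 or WT2, and Nfe2, Ggct and Selenos only without KO2. Csad, Ggt7 and Sesn1 passed in 0 of 6 fits, with adjusted p up to 0.123, 0.127 and 0.128. The direction of each of the 10 genes was the same in all 6 fits.

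**Figure D5:**
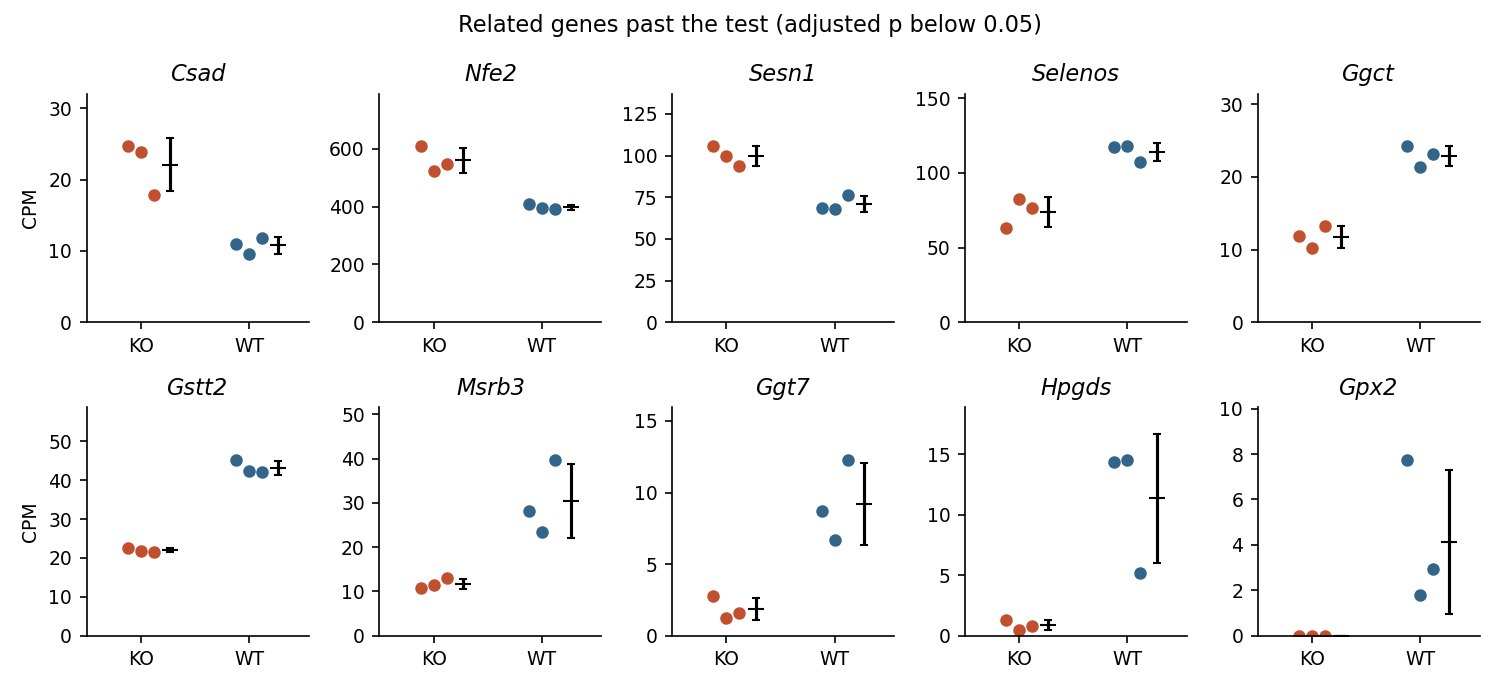
CPM of the 10 related genes past the test, 1 point per library (KO red, WT blue, in the order 1, 2, 3) with mean ± SD beside the points and every axis starting at 0. Csad, Nfe2 and Sesn1 are higher in each KO library and the other 7 lower, and Gpx2 is at 0 in all 3 KO libraries.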

How the data were processed

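Reads per gene were counted in 6 libraries, 3 labelled SLC6A6 KO and 3 SLC6A6 WT. The deposited values are whole-number counts in 1 table. Per the submitters' processing notes the authors used STAR 2.7.9a, fastp 0.23.1, featureCounts and Subread 2.0.1. Not given in the sources used here are their settings, the build and annotation, and the handling of reads that match several genes. Per the labels' protocols the cDNA was pre-amplified with SMARTer chemistry and made into libraries with Nextera XT. That chemistry carries no molecular identifiers and no strand, so limits on counts cover counting error only, and overlapping antisense reads cannot be told apart.

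Counts were filtered with filterByExpr (minimum count 10, total 15), scaled by TMM and compared with edgeR 4.0.16's quasi-likelihood F test in R 4.3.3 (robust, no covariate), with Benjamini-Hochberg adjustment over 15232 genes at 0.05. CPM use TMM-scaled library sizes, and 3 counts in a library are 0.0594 to 0.0727 CPM. Standard errors are the log2 fold change divided by the square root of F. All pairs of libraries in a group differed beyond counting noise (chi-square over its degrees of freedom 36.4 to 127). The code was tested on simulated counts.

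Members and lists were chosen with earlier results of these data known. All members are named. From each related list the genes past the test are named, or else the 2 with the smallest p at a mean of at least 1 CPM. Values in every library are given for members past the test, members without overlap and a log2 fold change of at least 0.5 in size, and at least 1 member of each role. Of 158 related genes, Gsta13 had no row under that symbol, as had 1 of the 22 erythroid markers, Ahsp. Alternatives were other scalings and filters, DESeq2 1.42.0, limma-voom (limma 3.58.1), a replicate block, an erythroid covariate and each library left out. T and NK, B and plasma and neutrophil markers summed to 730 to 1044, 64.1 to 168 and 19.6 to 261 CPM in KO and to 692 to 846, 5.69 to 43.3 and 112 to 782 CPM in WT, with 6 of 11, 3 of 9 and 0 of 11 tested markers higher past the test and 0 lower. Nkg7 made up most of the T and NK sum, at 701, 1033 and 805 CPM in KO and 839, 690 and 822 CPM in WT. The 6 called higher were Cd3d, Cd3e, Cd4, Trbc1, Trbc2 and Cd2. Their means were 1.46 to 3.27 CPM in KO and 0 to 0.154 CPM in WT. Klrb1c went the other way without passing the test (0.859 and 3.08 CPM in KO and WT).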

Additional observations from a re-analysis of the deposited data

How the results depend on the processing

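The count of members called higher was 1 under the other scalings and filters and limma-voom, 6 with DESeq2, 2 with the erythroid covariate and 0 with the replicate block, and 0 to 2 with 1 library left out (0 without KO3 or WT3, 2 without KO2); members called lower were 0 throughout. Over all genes, higher and lower calls numbered 250 and 293 in the test as reported, 1075 and 920 with DESeq2, 145 and 99 with the covariate, and 13 to 371 and 29 to 247 with 1 library left out (fewest without WT3). Related genes called higher and lower, 3 and 7 as reported, numbered 9 and 12 with DESeq2, 0 and 2 with the covariate, and 0 to 1 and 1 to 9 with 1 library left out. With the replicate block 8 genes were higher and 20 lower, and 0 related genes were called in either direction. Whether the numbers pair the libraries is not known. Same-numbered libraries had deviations from their group means correlated at 0.05, -0.24 and -0.09, and not every library correlated best with its own number. With 3 libraries in a group such correlations cannot decide it.

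With the erythroid covariate the log2 fold change changed sign for Srxn1 (-0.20), Gclc (-0.14), Gclm (-0.039), Gss (-0.37), Gpx1 (-0.23), Gpx4 (-0.24), Prdx2 (-0.16), Prdx3 (-0.31), Txnrd2 (-0.17), Ftl1 (-0.028), Fth1 (-0.27), Glrx5 (-0.30), Gstm5 (-0.41), Gsta4 (-0.11), Gsto1 (0.10) and Blvrb (-0.34), none of them past the test in either fit. With 1 library left out the sign varied for Gss (-0.095 to 0.27), Gpx4 (-0.044 to 0.17), Prdx3 (-0.012 to 0.28), Glrx2 (-0.094 to 0.00038), Gsta4 (-0.23 to 0.48) and Gsto1 (-0.27 to 0.095). The cause was not tested. No member or named related gene changed sign under another scaling, filter or test or the replicate block.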
